A study of Setaria italica with 24 samples.

Results

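The response of root gene expression to an arbuscular mycorrhizal fungus (AMF) was compared between TT8, a foxtail millet (Setaria italica) cultivar from Taiwan, and Hanevalval, a landrace from Taiwan. For each gene the difference between AMF- and mock-treated roots of Hanevalval was subtracted from the same difference in TT8, which gives an interaction on the log2 scale that is positive where the TT8 response was the higher of the pair. All genes listed for both lines whose mean value reached 5 in each of them were members, which were 23968 of the 24287 genes listed for both lines and of the 26785 genes listed for any line. The 319 genes left out had a lower mean in at least 1 of the lines, and the lower line mean of the genes next to this limit was 5.0094 inside it and 4.9997 outside it.

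The groups were AMF-treated TT8, mock-treated TT8, AMF-treated Hanevalval and mock-treated Hanevalval, with 4 libraries each, 16 of the 24 libraries of the series. The remaining libraries came from ISE36, a landrace from India that the library labels name ICE36, and were used to describe the called genes and in an alternative fit of all 24 libraries. Plants of all groups were grown in autoclaved sand and peat moss and given liquid fertilizer, AMF-treated plants received spores of Claroideoglomus etunicatum at transplanting, and roots were harvested 6 weeks later. No label says how many plants a library held or whether plants were grown in separate batches, so p-values measure the spread between these libraries. Each line is a single genotype, and each library held RNA of whole root tissue, in which colonized and uncolonized cells are mixed. Fewer colonized cells and less RNA per colonized cell therefore cannot be told apart from these values. The study scored colonized root length in stained roots and reports it as similar between the lines, but gives no value per library.

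In arbuscular mycorrhizal symbiosis (AMS) the fungus grows into cortical root cells and forms branched arbuscules, where the plant takes up phosphate and nitrogen and supplies lipids and sugars. Plant perception of the fungus runs through a common symbiosis signaling pathway with a calcium-dependent kinase, and GRAS transcription factors then switch on the genes for arbuscule development, nutrient transport and lipid export. Host genotypes are known to differ in how far they are colonized and in how strongly their roots respond.

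The values are gene counts divided by a size factor per library, and each library held 15013564 to 19557223 recovered reads assigned to genes. Colonization was examined with 11 AM marker genes (PHT1;9, RAM1, RAM2, FatM, STR and STR2, described below, an exocyst-related protein, an AP2 transcription factor, a pair of subtilisin inhibitors and a germin-like protein). Their summed value was 13150, 20560, 12930 and 11670 in AMF-treated TT8 libraries 1 to 4, and 87.53, 75.13, 79.31 and 392.1 in mock-treated ones. It was 6111, 702, 1434 and 1494 in AMF-treated Hanevalval, and 77.53, 92.08, 404.8 and 203.8 in mock-treated Hanevalval. All 11 markers had reads in every AMF-treated library, in mock-treated TT8 replicate 4 and in mock-treated Hanevalval replicate 3, whereas 4 or 5 of them were at 0 in the mock-treated TT8 replicates 1 to 3 and the mock-treated Hanevalval replicates 1 and 2, and 1 was at 0 in mock-treated Hanevalval replicate 4. On the first principal component, which held 48.8% of the variance, mock-treated TT8 replicate 4 lay at -60.11 and the other mock-treated TT8 libraries between -125.2 and -114.6. Mock-treated Hanevalval replicates 3 and 4 lay at 66.63 and 46.76, and replicates 1 and 2 at -102.9 and -90.88. These mock-treated libraries thus stood apart from the rest of their groups, so counts are given below with and without them. Markers of leaves, of the endodermis and of dividing cells could not be looked up because the gene identifiers came without descriptions.

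The response to AMF differed between TT8 and Hanevalval for 1323 genes, 5.52% of those tested, by limma with Benjamini-Hochberg adjustment which called a gene where the adjusted p did not exceed 0.05 and the interaction reached 2-fold. The interaction was positive for 803 of them (3.35%) and negative for 520 (2.17%). At an unadjusted p under 0.05, 6171 genes or 25.7% passed. The interaction reached 2-fold for 5735 genes, and among these the adjusted p next to the threshold was 0.0499 inside and 0.0502 outside. Over all genes tested the median interaction was 0.02 and the range was -4.70 to 6.90.

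The called genes were sorted by the size and sign of the response in each line, which is a description of the same libraries and not a further test. In 405 genes the response was stronger in TT8, with 269 upward and 136 downward. In 423 genes it was weaker in TT8, with 159 upward and 264 downward in Hanevalval. Weaker genes were at least 2-fold in Hanevalval, with TT8 either under 2-fold in any direction or less strongly changed in the same direction. Stronger genes were defined with the lines exchanged. The direction named is that of Hanevalval for weaker genes and that of TT8 for stronger ones, and the other line could differ in sign. In 146 genes the lines responded in opposite directions by at least 2-fold each, 101 with TT8 up and 45 with TT8 down. The remaining 349 called genes had a response under 2-fold in either line, 169 with a positive and 180 with a negative interaction.

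**Figure D1:**
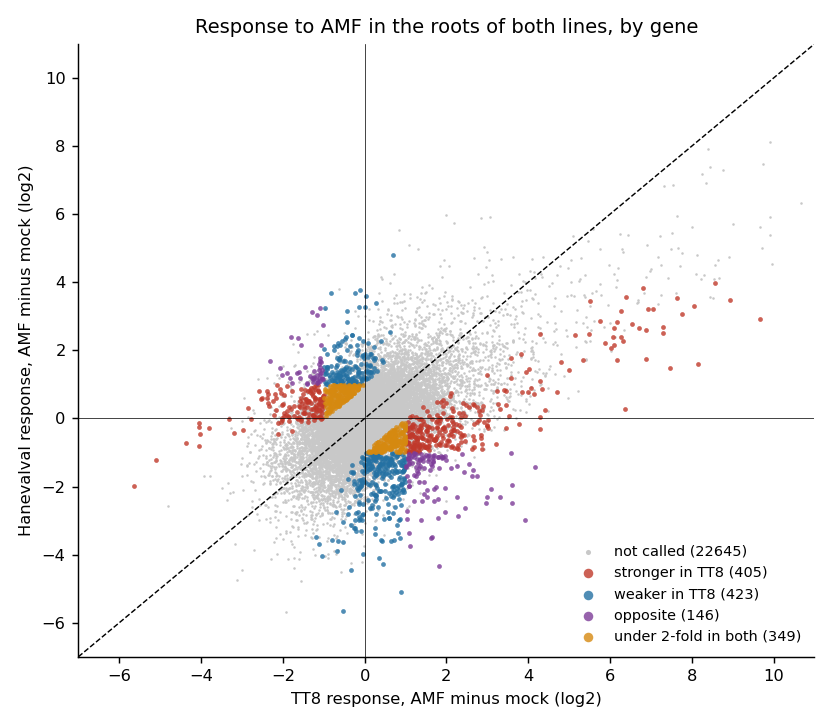
Response to AMF (AMF minus mock, log2) of each tested gene in TT8 (x axis) and in Hanevalval (y axis), with equal responses on the dashed line. Each point is a gene, colored by the pattern of the 1323 called genes. The genes stronger in TT8 reach furthest to the right and the 146 opposite genes fill the upper left and lower right corners.

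Within the genes that responded more strongly upward in TT8, a subset of 43 was also at least 2-fold up in Hanevalval. This subset had a median response of 6.17 in TT8 and 2.47 in Hanevalval. The other 226 had a median of 1.76 in TT8 and -0.38 in Hanevalval. For the downward genes stronger in TT8 the medians were -1.47 in TT8 and 0.35 in Hanevalval, and only 2 of the 136 were at least 2-fold down in Hanevalval as well. The 159 upward genes weaker in TT8 had medians of -0.39 in TT8 and 1.39 in Hanevalval, and none of them was 2-fold up in TT8. The 264 downward genes weaker in TT8 had medians of 0.33 in TT8 and -1.65 in Hanevalval, with 3 at least 2-fold down in TT8. In the opposite classes the medians were 1.55 in TT8 and -1.43 in Hanevalval with TT8 up, and -1.24 in TT8 and 1.33 in Hanevalval with TT8 down.

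The interaction of a gene is its difference between the lines under AMF minus its difference under mock treatment, and these parts were separated for the called genes as a description of the same contrast. The lines differed by at least 2-fold under AMF alone in 1031 of the 1323 genes (77.9%), against 20.3% of all genes tested. They differed under mock treatment alone in 43 genes (3.25%), against 4.85% of all genes tested. Differences under both treatments were found in 104 called genes (7.86%), against 7.70% of all genes tested, and under neither in 145 (11%), against 67.2%. Among the opposite genes the lines differed under both treatments in 31 of the 146 (21.2%) and under mock treatment alone in 4. In most called genes the lines thus stood apart in AMF-treated roots and were within 2-fold of each other in mock-treated roots.

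The ISE36 libraries entered neither the test nor the sorting, their values are a description with no test, and 1300 of the called genes had values there. The ISE36 response lay nearer to that of Hanevalval than to that of TT8 in 1133 of them (87.2%), against 67.0% of all genes. For the genes stronger in TT8 (97.3% of the upward and 97.7% of the downward ones) this share is largely fixed by the sorting, since Hanevalval was mostly under 2-fold there and a line with no response counts as nearer to it. These genes also enter the share over all called genes. The share was 95.9% and 93.3% for the opposite genes with TT8 up and TT8 down. It was 80.8% for the upward and 63.7% for the downward genes weaker in TT8, against 67.0% of all genes. For these genes the sorting works the other way. TT8 was mostly under 2-fold there, so a line with no response counts as nearer to TT8. Of the upward genes weaker in TT8, 78 of 156 (50%) were at least 2-fold up in ISE36, against 6.57% of all genes. Of the downward genes weaker in TT8, 98 of 262 (37.4%) were at least 2-fold down in ISE36, against 6.09% of all genes. The subset that was up in TT8 and, less strongly, in Hanevalval was up in ISE36 in 28 of 36 cases (77.8%), whereas of the subset with Hanevalval under 2-fold 5 of 224 were up and 17 were down in ISE36.

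**Figure D2:**
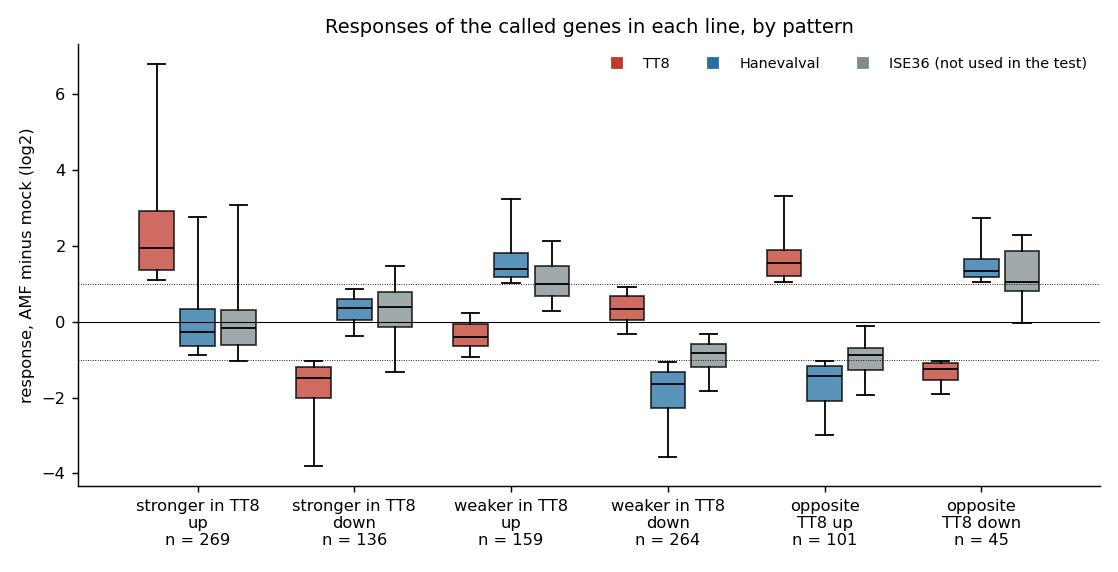
Response to AMF (log2) of the called genes in TT8, Hanevalval and ISE36 by pattern, with boxes from the lower to the upper quartile, medians as lines, whiskers to the 5th and 95th percentiles and dotted lines at 2-fold. The TT8 and Hanevalval boxes follow from the sorting, while the ISE36 boxes do not, and the median of ISE36 in the upward genes weaker in TT8 was 1.00.

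The counts depended on single libraries. Without mock-treated TT8 replicate 4, 3101 genes were called, with 1603 stronger and 565 weaker in TT8. Without mock-treated Hanevalval replicate 3 there were 2702, with 490 stronger and 1461 weaker. Leaving out both, a choice made after seeing the data, gave 4027 genes, with 1465 stronger, 1464 weaker and 379 opposite. Stronger and weaker genes numbered 771 and 242 without mock-treated Hanevalval replicates 1 and 2, and 450 and 3239 without replicates 3 and 4. Which of these patterns was the more frequent thus depended on the mock-treated libraries used. Fewer genes were called without TT8 mock replicate 1 (427), 2 (459) or 3 (552), or without TT8 AMF replicate 1 (1011), 2 (381), 3 (455) or 4 (535). The same held without Hanevalval mock replicate 1 (790), 2 (829) or 4 (961). It also held without Hanevalval AMF replicate 1 (1312), 2 (988), 3 (491) or 4 (469). Mock-treated Hanevalval replicate 4 had stood apart too, so leaving out such a library did not always raise the count. In 341 genes the call held in each of the 16 fits that left out 1 library, among them 123 stronger, 99 weaker and 56 opposite genes. The sign of the interaction was the same for all 1323 genes in each of these fits, which share most libraries with the fit that chose the genes.

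AMS-conserved genes are orthologs of genes that an earlier phylogenomic comparison found kept in plants that host AMF. Of the 54 in the list, 51 were listed for both lines and 50 were tested. The response of 12 of them differed between the lines (24%, against 5.52% of all genes tested), with 11 positive and 1 negative interaction. Of the 50, 41 had a positive interaction, and the list median was 1.87 against 0.02 for all genes, or 1.76 when groups with at most 3 reads in every library were set to that floor. The median response was 3.61 in TT8 and 1.91 in Hanevalval. Of the called genes, 9 were upward and stronger in TT8, 1 was downward and stronger in TT8, 1 was opposite with TT8 up, and 1 was under 2-fold in either line.

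The called genes of this list are all named, DMI3, RAD1, CBF1, ABCB2, ABCB12 and 2 others after their values were seen, as are the uncalled CYCLOPS and nitrogen transporters. DMI3 (SETIT_021787mg), the calcium- and calmodulin-dependent kinase of the common symbiosis pathway, had 1203, 1266, 1524 and 1642 in AMF-treated TT8 and 336, 777, 800 and 1430 in mock-treated TT8. Its values were 546, 505, 585 and 364 in AMF-treated Hanevalval and 864, 907, 731 and 686 in mock-treated Hanevalval. The treatments overlapped in TT8 through mock replicate 4 and did not overlap in Hanevalval, where all AMF-treated libraries were lower. The responses were 0.92 ± 0.31 in TT8 and -0.68 ± 0.31 in Hanevalval (SE), with an interaction of 1.6 ± 0.44 (SE, adjusted p = 0.0442), and 14 of the 16 fits without 1 library lost this call. CYCLOPS (SETIT_008637mg), the transcription factor that DMI3 phosphorylates, had responses of 1.90 ± 0.39 in TT8 and 1.57 ± 0.39 in Hanevalval (SE), and its interaction did not pass (0.34 ± 0.55, adjusted p = 0.734).

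RAD1 (SETIT_000959mg), a GRAS transcription factor needed for normal arbuscules in legumes, had 1249, 1720, 1432 and 1539 in AMF-treated TT8, against 149, 217, 208 and 1285 in mock-treated TT8. In AMF-treated Hanevalval it had 345, 141, 102 and 116, against 347, 331, 233 and 249 in mock-treated Hanevalval. Mock-treated TT8 replicate 4 was thus within the range of AMF-treated TT8, and in Hanevalval AMF replicate 1 lay among the mock-treated libraries. The interaction was 3.15 ± 0.75 (SE, adjusted p = 0.028), from responses of 2.27 in TT8 and -0.88 in Hanevalval, and 8 of the 16 fits without 1 library lost the call. CBF1 (SETIT_023636mg), a CCAAT-binding transcription factor, had 399, 386, 305 and 375 in AMF-treated TT8, against 41.0, 79.0, 103 and 161 in mock-treated TT8. In AMF-treated Hanevalval it had 89.9, 45.7, 79.8 and 82.7, against 158, 128, 72.7 and 116 in mock-treated Hanevalval. The groups did not overlap in TT8 and overlapped in Hanevalval. Its interaction of 2.73 ± 0.50 (SE, adjusted p = 0.0118) was called in all 29 alternatives.

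RAM1 (SETIT_027708mg), the GRAS transcription factor that switches on the lipid supply genes, had 168, 363, 221 and 210 in AMF-treated TT8, against 0, 0, 0 and 4.74 in mock-treated TT8. It had 85.5, 60.6, 117 and 84.8 in AMF-treated Hanevalval, against 0, 0, 18.7 and 0 in mock-treated Hanevalval. AMF- and mock-treated libraries did not overlap in either line. The interaction of 1.88 ± 1.18 (SE, adjusted p = 0.329) did not pass, and it was 0.81 without mock-treated Hanevalval replicate 3 and 2.51 without mock-treated TT8 replicate 4.

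Genes of the lipid supply to the fungus follow. FatM (SETIT_003998mg), a thioesterase that releases the fatty acids destined for the fungus, had 645, 1024, 621 and 647 in AMF-treated TT8, against 6.52, 2.93, 0.853 and 24.9 in mock-treated TT8. It had 127, 13.9, 53.6 and 91.3 in AMF-treated Hanevalval, against 4.56, 4.75, 16.8 and 11.9 in mock-treated Hanevalval. The treatments did not overlap in TT8, while in Hanevalval AMF replicate 2 lay below mock replicate 3. The responses of 6.87 ± 0.74 in TT8 and 2.59 ± 0.74 in Hanevalval (SE) gave an interaction of 4.28 ± 1.05 (SE, adjusted p = 0.0309), which 9 of the 16 fits without 1 library did not call. RAM2 (SETIT_035307mg), a glycerol-3-phosphate acyl transferase that acts on these fatty acids, had 865, 1248, 652 and 632 in AMF-treated TT8, against 0.931, 0.976, 0 and 19.0 in mock-treated TT8. It had 181, 21.8, 64.1 and 106 in AMF-treated Hanevalval, against 0, 0, 14.9 and 12.9 in mock-treated Hanevalval. Its interaction of 3.86 ± 1.47 (SE, adjusted p = 0.114) did not pass with all libraries and was 4.78 (adjusted p = 0.024) without mock-treated TT8 replicate 4.

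The half-size ABC transporters STR and STR2 sit together in the plant membrane around the arbuscule and are held to export lipids. STR (SETIT_015555mg) had 515, 823, 453 and 517 in AMF-treated TT8, against 53.1, 49.8, 45.2 and 37.9 in mock-treated TT8. It had 135, 52.6, 86.1 and 87.0 in AMF-treated Hanevalval, against 35.3, 38.0, 31.7 and 42.1 in mock-treated Hanevalval. The treatments did not overlap in either line, and mock-treated libraries of both lines lay close together. The response was 3.58 ± 0.26 in TT8 and 1.2 ± 0.26 in Hanevalval (SE), the interaction was 2.38 ± 0.36 (SE, adjusted p = 0.00666), and it was called in all 29 alternatives. STR2 (SETIT_003786mg) had 432, 696, 396 and 354 in AMF-treated TT8, against 12.1, 7.81, 8.53 and 11.8 in mock-treated TT8. It had 144, 11.9, 46.2 and 71.9 in AMF-treated Hanevalval, against 21.7, 20.9, 4.66 and 3.24 in mock-treated Hanevalval. AMF replicate 2 of Hanevalval lay within the mock-treated range, and the interaction of 3.11 ± 0.93 (SE, adjusted p = 0.0562) missed the threshold. It passed without mock-treated TT8 replicate 4 (3.19, adjusted p = 0.0415), mock-treated Hanevalval replicate 3 (3.41, adjusted p = 0.0307) or 4 (3.54, adjusted p = 0.0418), and AMF-treated Hanevalval replicate 1 (3.62, adjusted p = 0.0308).

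PHT1;9 (SETIT_004288mg), the phosphate transporter of colonized roots, had 2353, 3682, 2583 and 1940 in AMF-treated TT8, against 1.86, 0.976, 0.853 and 74.6 in mock-treated TT8. It had 1475, 103, 302 and 193 in AMF-treated Hanevalval, against 1.14, 1.90, 97.0 and 29.1 in mock-treated Hanevalval. The libraries of each treatment did not overlap in either line, but mock-treated Hanevalval replicate 3 came close to AMF replicate 2. The responses were 8.92 ± 1.29 in TT8 and 4.73 ± 1.29 in Hanevalval (SE), and the interaction of 4.19 ± 1.83 (SE, adjusted p = 0.164) did not pass, while without mock-treated TT8 replicate 4 it was 5.47 (adjusted p = 0.0272). The 4 nitrogen transporters of the list did not pass either, with an interaction of 2.31 ± 0.78 for the ammonium transporter AMT3;1 (SETIT_004697mg, adjusted p = 0.0809) and 2.76 ± 0.82 for a nitrate transporter (SETIT_004857mg, adjusted p = 0.055), and with -0.21 ± 0.48 for the ammonium transporter AMT2;1 (SETIT_024947mg, adjusted p = 0.823) and -1.14 ± 0.39 for an oligopeptide transporter (SETIT_026160mg, adjusted p = 0.0845; SE each). All 11 AM marker genes, which are a part of this list, had a positive interaction, with a median of 3.20, and 2 of them, FatM and STR, were called. Of the 50 list genes tested, 41 were positive and 9 negative, so the shared sign of the markers does not stand for the list. Not every AMF-raised list gene was positive, as 2 uncalled genes show that were named after their values were seen. An AP2 transcription factor (SETIT_001909mg) had -2.52 ± 0.87 (adjusted p = 0.0892), and a class III chitinase (SETIT_002395mg) had -0.27 ± 1.03 (adjusted p = 0.897; SE each).

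**Figure D3:**
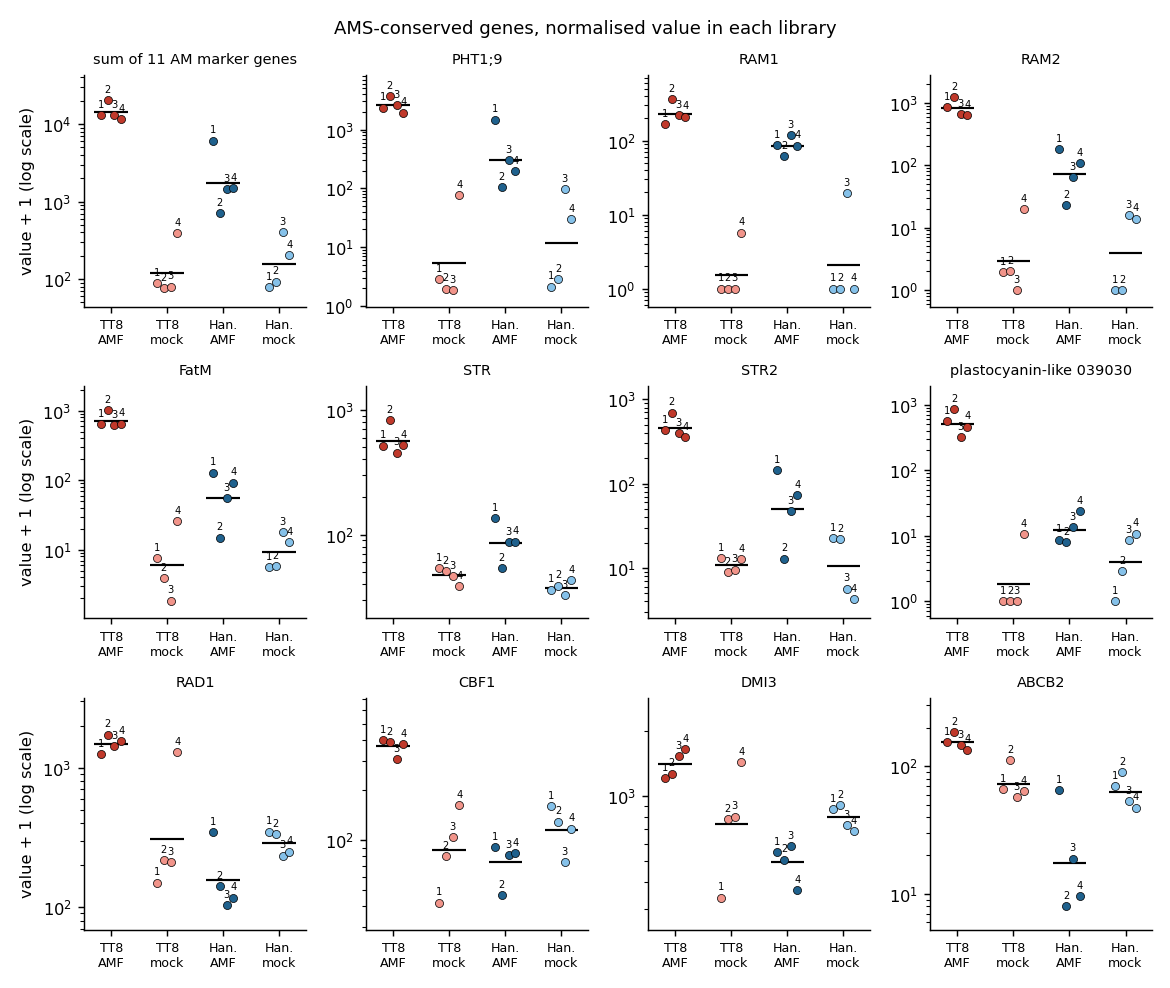
Values + 1 on a log scale of the summed AM marker genes and of 11 AMS-conserved genes in each library of AMF-treated TT8, mock-treated TT8, AMF-treated Hanevalval (Han.) and mock-treated Hanevalval, with replicate numbers at the points and bars at the mean of the log values. STR is separated by treatment in both lines and its AMF-treated values are higher in TT8, while replicate 4 of mock-treated TT8 lies above the other mock-treated TT8 libraries for the marker sum, PHT1;9, RAM2 and RAD1.

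A pair of called genes in this list encoded plastocyanin-like domain proteins, relatives of the copper protein plastocyanin. SETIT_039030mg, with the largest interaction of the called genes in this list, had 554, 858, 321 and 461 in AMF-treated TT8, against 0, 0, 0 and 9.48 in mock-treated TT8. It had 7.67, 6.95, 12.6 and 22.5 in AMF-treated Hanevalval, against 0, 1.90, 7.46 and 9.71 in mock-treated Hanevalval. Treatments were far apart in TT8 and overlapped in Hanevalval, and the interaction of 6.57 ± 1.15 (SE, adjusted p = 0.0104) was called in all 29 alternatives. SETIT_039259mg had 185, 197, 154 and 109 in AMF-treated TT8, against 0, 0.976, 0 and 8.29 in mock-treated TT8. Its values were 3.29, 0.993, 14.7 and 22.5 in AMF-treated Hanevalval, against 0, 0, 0.933 and 1.08 in mock-treated Hanevalval, where no library held more than 3 reads. Against a floor of 3 reads per library its mean in AMF-treated Hanevalval was at least 3.38-fold higher than in mock-treated Hanevalval. Its interaction of 3.85 ± 1.10 (SE, adjusted p = 0.0491) was lost in 13 of the 16 fits without 1 library. A gene annotated as heparan-alpha-glucosaminide N-acetyltransferase (SETIT_028233mg) had 527, 826, 462 and 612 in AMF-treated TT8, against 11.2, 4.88, 4.26 and 17.8 in mock-treated TT8. It had 467, 161, 394 and 543 in AMF-treated Hanevalval, against 93.5, 77.8, 90.5 and 77.7 in mock-treated Hanevalval. Here the lines overlapped under AMF and stood apart under mock treatment, with differences between TT8 and Hanevalval of 0.73 and -3.22, so the interaction of 3.95 ± 0.58 (SE, adjusted p = 0.00502) rested on the mock-treated roots. It was called in all 29 alternatives.

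The other called AMS-conserved genes follow. A subtilisin inhibitor (SETIT_023913mg) had an interaction of 3.77 ± 1.00 (adjusted p = 0.0396), and the ABC transporter ABCB12 (SETIT_012264mg) had 3.64 ± 0.88 (adjusted p = 0.0292; SE each), from responses of 6.55 and 5.87 in TT8 and 2.78 and 2.23 in Hanevalval, and the calls were lost in 11 and 10 of the 16 fits without 1 library. ABCB2 (SETIT_015752mg) was the only opposite gene of the list, with 153, 183, 146 and 134 in AMF-treated TT8, against 65.2, 111, 56.3 and 62.8 in mock-treated TT8, and with 63.6, 6.95, 17.9 and 8.59 in AMF-treated Hanevalval, against 68.4, 88.3, 52.2 and 46.4 in mock-treated Hanevalval. In Hanevalval, AMF replicate 1 lay within the mock-treated range, and the interaction was 2.94 ± 0.70 (SE, adjusted p = 0.028), lost in 8 of the 16 fits. The only negative call was a late embryogenesis abundant gene (SETIT_023221mg), whose responses were -1.21 in TT8 and 0.06 in Hanevalval (interaction -1.27 ± 0.35 SE, adjusted p = 0.0428), with the call lost in 12 of the 16 fits.

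Amino acid genes formed a list of 42, of which 41 were tested. The study chose this list from the responses of these same samples, so neither its direction nor its share of called genes is independent evidence. The response of 7 genes differed (17.1%, against 5.52% of all genes tested), with 2 positive and 5 negative interactions, and 32 of the 41 interactions were negative. The list median was -0.88 against 0.02 for all genes, with a median response of 0.99 in TT8 and 1.73 in Hanevalval. Of the 5 negative calls, 4 were upward in Hanevalval and weaker in TT8, and 1 was under 2-fold in either line.

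Genes for amino acid synthesis and for the use of amino acids made up the negative calls. Phenylalanine ammonia-lyase (SETIT_016504mg), which opens the phenylpropanoid pathway, had 4501, 7749, 6020 and 8566 in AMF-treated TT8, against 22303, 17686, 6674 and 10121 in mock-treated TT8. It had 15202, 12684, 43310 and 31603 in AMF-treated Hanevalval, against 8951, 7279, 8516 and 12909 in mock-treated Hanevalval. The treatments overlapped in both lines, and the interaction was -2.27 ± 0.59 (SE, adjusted p = 0.0376), lost in 10 of the 16 fits without 1 library. The other phenylalanine ammonia-lyase genes of the list were not called. Their interactions lay between -1.68 (SETIT_013348mg, adjusted p = 0.0595) and -0.63 (SETIT_009509mg, adjusted p = 0.577). Argininosuccinate lyase (SETIT_035209mg), the last enzyme of arginine synthesis, had 497, 479, 440 and 413 in AMF-treated TT8, against 382, 503, 427 and 441 in mock-treated TT8. It had 1348, 1373, 2249 and 1973 in AMF-treated Hanevalval, against 382, 346, 1018 and 850 in mock-treated Hanevalval. All TT8 libraries and mock-treated Hanevalval replicates 1 and 2 lay at a like level, and the interaction was -1.47 ± 0.42 (SE, adjusted p = 0.0475), lost in 12 of the 16 fits. Another argininosuccinate lyase of the list (SETIT_021759mg) was not called, and the study reports it as raised by AMF in both lines.

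The other negative calls are named after their values were seen. Anthranilate phosphoribosyltransferase (SETIT_036040mg), an enzyme of tryptophan synthesis, had an interaction of -1.29 ± 0.34 (adjusted p = 0.0403) that 11 of the 16 fits lost, and an aminotransferase (SETIT_001761mg) had -1.27 ± 0.26 (adjusted p = 0.0165; SE each). The aminotransferase had 672, 746, 651 and 707 in AMF-treated TT8, against 781, 747, 630 and 802 in mock-treated TT8, and 1723, 1833, 2417 and 2344 in AMF-treated Hanevalval, against 797, 678, 1339 and 919 in mock-treated Hanevalval. It was called in each of the 16 fits, but not without mock-treated Hanevalval replicates 1 and 2 together. Ornithine aminotransferase (SETIT_035474mg), which links ornithine with proline and glutamate, had an interaction of -1.14 ± 0.24 (SE, adjusted p = 0.02), which of the 16 fits only the one without mock-treated Hanevalval replicate 1 lost.

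The positive calls were a proline oxidase and a gene that the study annotates only as related to GMP synthase. Proline oxidase (SETIT_035342mg), which starts proline breakdown, had 10988, 11694, 11775 and 11589 in AMF-treated TT8, against 669, 1483, 2568 and 11909 in mock-treated TT8. It had 4784, 2732, 1888 and 1775 in AMF-treated Hanevalval, against 3670, 5613, 3549 and 7228 in mock-treated Hanevalval. Mock-treated TT8 replicate 4 was above every AMF-treated TT8 library, and the interaction of 3.19 ± 0.88 (SE, adjusted p = 0.0437) was lost in 13 of the 16 fits. A gene related to GMP synthase (SETIT_019548mg), an enzyme that takes nitrogen from glutamine, had 405, 793, 570 and 662 in AMF-treated TT8, against 79.1, 170, 221 and 281 in mock-treated TT8. It had 53.7, 23.8, 30.5 and 63.3 in AMF-treated Hanevalval, against 186, 141, 54.1 and 1350 in mock-treated Hanevalval. It was opposite, with responses of 1.79 ± 0.71 in TT8 and -2.37 ± 0.71 in Hanevalval (SE), and an interaction of 4.16 ± 1.01 (SE, adjusted p = 0.0294). Without mock-treated Hanevalval replicate 4 the interaction was 3.27 (adjusted p = 0.0236), and 9 of the 16 fits lost the call.

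Of 53 cell wall polysaccharide genes, a list that the study also chose from these samples, 51 were tested and 8 were called (15.7%, against 5.52% of all genes tested), all with a positive interaction. The interaction was positive for 50 of the 51. Since the list was chosen on these samples, neither this count nor the share of called genes is independent evidence. The list median was 1.23 against 0.02 for all genes, with median responses of -0.57 in TT8 and -1.63 in Hanevalval. Of the called genes, 7 were downward in Hanevalval and weaker in TT8, and 1 was upward and stronger in TT8. The TT8 response of the 7 was not always a decrease, with 0.91 for SETIT_000786mg and -0.53 for SETIT_014194mg.

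Xyloglucan and xylan genes made up 4 of the 8 calls. A 1,4-beta-D-xylan synthase (SETIT_013204mg), an enzyme of the xylan backbone, had 12395, 12886, 9353 and 9112 in AMF-treated TT8, against 2338, 6415, 7718 and 17498 in mock-treated TT8. It had 849, 965, 715 and 820 in AMF-treated Hanevalval, against 9148, 10067, 1436 and 8303 in mock-treated Hanevalval. The AMF-treated Hanevalval libraries were below all the others, and mock-treated Hanevalval replicate 3 was the nearest to them. The responses were 0.69 ± 0.58 in TT8 and -2.79 ± 0.58 in Hanevalval (SE), with an interaction of 3.47 ± 0.83 (SE, adjusted p = 0.028) that 10 of the 16 fits lost. Xyloglucan endotransglucosylases cut and rejoin the xyloglucan that ties cellulose fibrils together. SETIT_026698mg of this family had 299, 104, 84.9 and 76.9 in AMF-treated TT8, against 74.5, 137, 220 and 172 in mock-treated TT8, and 7.67, 32.8, 15.8 and 10.7 in AMF-treated Hanevalval, against 149, 131, 71.8 and 153 in mock-treated Hanevalval. SETIT_014194mg had 160, 134, 86.0 and 95.6 in AMF-treated TT8, against 123, 162, 221 and 177 in mock-treated TT8, and 17.5, 5.96, 8.40 and 3.22 in AMF-treated Hanevalval, against 101, 106, 27 and 76.6 in mock-treated Hanevalval. In both genes AMF-treated libraries of Hanevalval lay below all its mock-treated ones, while the TT8 treatments overlapped, and the interactions were 2.75 ± 0.69 (adjusted p = 0.0329) and 2.52 ± 0.65 (adjusted p = 0.0357; SE each). The calls were lost in 9 and 13 of the 16 fits. SETIT_017966mg, named after its values were seen, had an interaction of 2.47 ± 0.54 (SE, adjusted p = 0.0213), which only the fit without AMF-treated TT8 replicate 2 lost (adjusted p = 0.0529). These genes belong to a multigene family, so reads could have been split between copies.

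Pectin genes were the other called wall genes. Pectin methylesterase (SETIT_000786mg), which removes methyl groups from pectin, had low values of 13.1, 21.7, 22.0 and 12.1 in AMF-treated TT8, against 5.59, 6.83, 11.9 and 10.7 in mock-treated TT8. It had 0, 3.97, 2.1 and 4.29 in AMF-treated Hanevalval, against 9.12, 10.4, 19.6 and 12.9 in mock-treated Hanevalval. AMF-treated libraries were above the mock-treated ones in TT8 and below them in Hanevalval, with no overlap in either line. The interaction was 3.07 ± 0.68 (SE, adjusted p = 0.0226), and 4 of the 16 fits lost the call. A gene related to galacturonosyltransferase 15 (SETIT_001402mg), named after its values were seen, had 1.64 ± 0.46 (SE, adjusted p = 0.0475), and 14 of the 16 fits without 1 library lost this call.

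The remaining 2 calls of this list, also named after their values were seen, have names that do not refer to wall polysaccharides. UDP-glucose-glucose-phosphate glucosyltransferase (SETIT_021103mg), the enzyme name of trehalose-phosphate synthase, had an interaction of 2.16 ± 0.53 (SE, adjusted p = 0.0305), lost in 9 of the 16 fits. Mock-treated TT8 replicate 4 had 7009 of this gene and the other mock-treated TT8 libraries had 2148, 2263 and 2646. D-alanine-D-alanine ligase (SETIT_028842mg), an enzyme of peptidoglycan synthesis in bacteria, had 1312, 1800, 1354 and 1682 in AMF-treated TT8, against 891, 805, 617 and 729 in mock-treated TT8. It had 371, 374, 372 and 353 in AMF-treated Hanevalval, against 1010, 910, 388 and 743 in mock-treated Hanevalval. The treatments did not overlap in either line, and the responses of 1.01 ± 0.23 in TT8 and -0.96 ± 0.23 in Hanevalval (SE) pointed in opposite directions. The interaction of 1.98 ± 0.33 (SE, adjusted p = 0.00904) was called in all 29 alternatives.

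**Figure D4:**
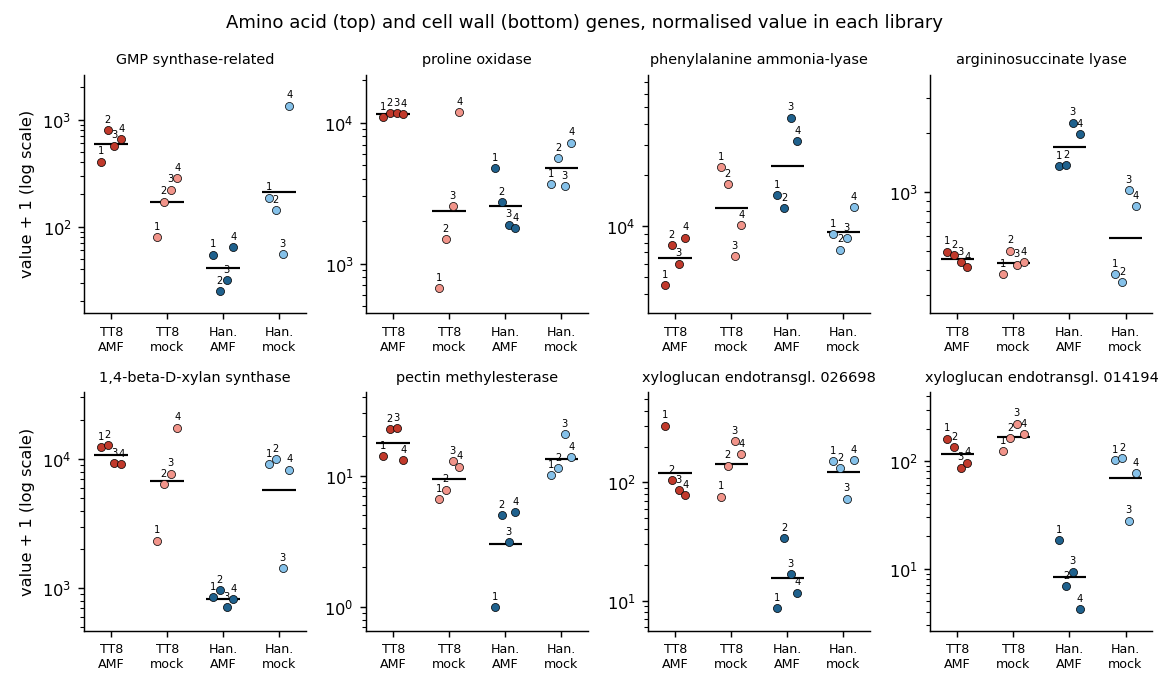
Values + 1 on a log scale of 4 amino acid genes (top) and 4 cell wall genes (bottom) in each library of AMF-treated TT8, mock-treated TT8, AMF-treated Hanevalval (Han.) and mock-treated Hanevalval, with replicate numbers at the points and bars at the mean of the log values. AMF-treated Hanevalval is the highest group for argininosuccinate lyase and the lowest for the 4 wall genes.

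**Figure D5:**
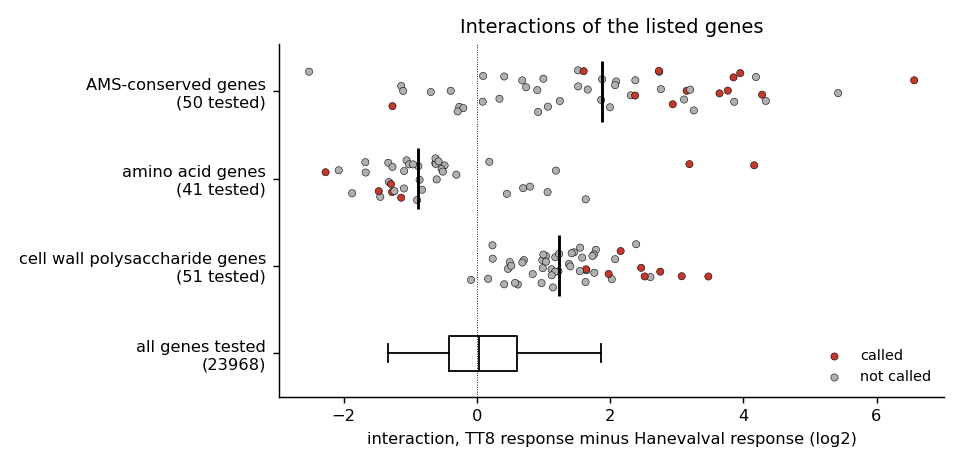
Interaction (TT8 response minus Hanevalval response, log2) of each tested member of the 3 lists, red where called, with the list median as a bar, and below them a box of all genes tested (quartiles, median and whiskers to the 5th and 95th percentiles). The medians are 1.87 for AMS-conserved genes, -0.88 for amino acid genes and 1.23 for cell wall polysaccharide genes, against 0.02 for all genes.

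The list counts moved with single libraries of each group. Without mock-treated TT8 replicate 4 and Hanevalval replicate 3, 29 of the AMS-conserved genes, 11 of the amino acid genes and 25 of the cell wall genes were called. With only replicates 1 and 2 of mock-treated Hanevalval as its reference, the downward genes weaker in TT8 had a median Hanevalval response of -2.05, and with only replicates 3 and 4 it was -1.33. For the upward genes weaker in TT8 these medians were 1.73 and 1.09. In TT8, the upward genes stronger there had a median response of 2.21 against mock replicates 1 to 3 and of 1.17 against mock replicate 4. Over the fits that left out 1 library the counts were 4 to 26 AMS-conserved, 2 to 13 amino acid and 2 to 21 cell wall genes. The low end, with 4 AMS-conserved, 2 amino acid and 2 cell wall genes, was reached without mock-treated TT8 replicate 1 and without AMF-treated TT8 replicate 2 or 3, and each fit without AMF-treated TT8 replicate 4 or AMF-treated Hanevalval replicate 3 gave 4, 2 and 4. The high end was 26 AMS-conserved and 13 amino acid genes without mock-treated TT8 replicate 4 and 21 cell wall genes without mock-treated Hanevalval replicate 3. The part of the mock-treated libraries with the higher marker sums in the results was not tested beyond these values.

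Among the called genes with a mean of at least 50 and no annotation in the lists, the extremes are given by identifier and were chosen after their values were seen. SETIT_037319mg had 2685, 4351, 3150 and 2714 in AMF-treated TT8, against 0, 1.95, 0 and 75.8 in mock-treated TT8, and 357, 62.6, 134 and 152 in AMF-treated Hanevalval, against 5.70, 11.4, 56.9 and 29.1 in mock-treated Hanevalval. Treatments did not overlap in either line, and the interaction was 6.75 ± 1.55 (SE, adjusted p = 0.0256), lost in 7 of the 16 fits. SETIT_013704mg had the highest interaction of all genes, 6.90 ± 1.82 (SE, adjusted p = 0.0393), but a single library of 471 in mock-treated Hanevalval replicate 4 stood above 12.5, 19.9 and 34.5 in the other mock-treated Hanevalval libraries, and 10 of the 16 fits lost the call. SETIT_022614mg had 42.5, 71.3, 88.1 and 131 in AMF-treated TT8, against 222, 236, 76.8 and 87.7 in mock-treated TT8, and 1539, 2116, 6085 and 5843 in AMF-treated Hanevalval, against 79.8, 89.2, 1223 and 477 in mock-treated Hanevalval. It was higher with AMF in Hanevalval without overlap, its interaction was -4.51 ± 1.09 (SE, adjusted p = 0.0292), lost in 8 of the 16 fits, and ISE36 responded by 3.34. SETIT_035143mg had -4.23 ± 1.10 (SE, adjusted p = 0.0373), lost in 11 of the 16 fits, with responses of -0.98 in TT8, 3.25 in Hanevalval and 0.50 in ISE36.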

How the data were processed

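Roots of TT8 and Hanevalval, AMF- and mock-treated, were sequenced as mRNA libraries, 4 per group. Per the labels, the authors trimmed reads with Trimmomatic 0.38, aligned them with HISAT2 2.1.0 to the S. italica genome, counted them per gene with featureCounts 2.0.0 and normalized with DESeq2 1.26.0. The deposited values are a signal, gene counts divided by a size factor per library, in 1 table per line. The tables were normalized separately, and both lines were joined on the gene identifier, so differences between lines also hold the difference of the scalings. Columns of the authors' own comparisons (fold changes and p-values) were not used, and 0 columns lacked a sample. Whole reads were recovered for 100% of the values at a relative tolerance of 0.001, and the alternatives with edgeR and DESeq2 used them. Groups with at most 3 reads in every library were set to that floor for bounds.

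Values were taken as log2(value + 1) and genes whose mean reached 5 in each line were fitted with limma 3.58.1 (R 4.3.3) in a model of 4 group means with a mean-dependent prior, without the replicate number. Fold changes are on this scale, which understates the change of low genes. A gene was called where the two-sided p, adjusted after Benjamini-Hochberg, did not exceed 0.05 and the interaction was 1 or more in size. The response of a line was at least 1 in size where it is called 2-fold, and responses carry standard errors only. The test was also run on simulated data with known changes. There all libraries of a group were drawn alike, so this check does not cover libraries that stand apart from their group. Alternatives were a pseudocount of 8, no filter, CPM, quantile normalization, all 24 libraries, edgeR 4.0.16, DESeq2 1.42.0, array weights, a replicate block, the adjusted p alone, leaving out libraries, and, chosen after seeing the data, leaving out mock-treated TT8 replicate 4 and Hanevalval replicate 3 together.

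The gene names come from tables of the study. The members, lists and tests were chosen with earlier results of these data known. Named genes are the 4 called genes with the largest interaction in each of the 3 lists, the phosphate, lipid and GRAS genes PHT1;9, RAM1, RAM2, STR, STR2 and FatM whatever their call, and, after their values were seen, the other called list members, 4 extremes and a few uncalled genes. A further rule, for the largest interactions with a description in each pattern, could not be applied because the identifiers came without descriptions, and the keyword lists, including markers of leaf, endodermis and dividing cells, were not used for the same reason. Figures were drawn with matplotlib 3.10.9 under Python 3.11.15.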

Additional observations from a re-analysis of the deposited data

Results flagged for a closer look

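The response differed between TT8 and Hanevalval by the test of the interaction itself for 1323 genes. Among the genes named above these were, with the interaction, the AMS-conserved genes SETIT_039030mg (6.57), FatM (4.28), SETIT_028233mg (3.95), SETIT_039259mg (3.85), SETIT_023913mg (3.77), ABCB12 (3.64), RAD1 (3.15), ABCB2 (2.94), CBF1 (2.73), STR (2.38), DMI3 (1.6) and SETIT_023221mg (-1.27). They were also the amino acid genes SETIT_019548mg (4.16), proline oxidase (3.19), the phenylalanine ammonia-lyase SETIT_016504mg (-2.27), the argininosuccinate lyase SETIT_035209mg (-1.47), anthranilate phosphoribosyltransferase (-1.29), the aminotransferase SETIT_001761mg (-1.27) and ornithine aminotransferase (-1.14). The cell wall genes were xylan synthase (3.47), pectin methylesterase (3.07), the xyloglucan genes SETIT_026698mg (2.75), SETIT_014194mg (2.52) and SETIT_017966mg (2.47), SETIT_021103mg (2.16), SETIT_028842mg (1.98) and SETIT_001402mg (1.64). The genes without annotation were SETIT_013704mg (6.90), SETIT_037319mg (6.75), SETIT_022614mg (-4.51) and SETIT_035143mg (-4.23).

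A single library lay far from the other 3 of its group, by Dixon's criterion, in 25 of 152 groups of values examined, where chance alone gives about 1 in 20. Many of these values share a library. Mock-treated TT8 replicate 4 was the high one for the summed AM markers (392.1), the first principal component (-60.11), proline oxidase (11909), SETIT_021103mg (7009), RAD1 (1285), SETIT_037319mg (75.8), PHT1;9 (74.6), SETIT_023913mg (42.7), RAM2 (19.0), SETIT_039030mg (9.48), SETIT_039259mg (8.29) and RAM1 (4.74). AMF-treated TT8 replicate 2 was the high one for the summed AM markers (20560), SETIT_023913mg (1892), FatM (1024) and ABCB12 (898). AMF-treated Hanevalval replicate 1 was the high one for the summed AM markers (6111), PHT1;9 (1475) and RAD1 (345). Mock-treated Hanevalval replicate 4 was the high one for SETIT_019548mg (1350) and SETIT_013704mg (471), and replicate 3 for RAM1 (18.7). The remaining values were 299 for SETIT_026698mg in AMF-treated TT8 replicate 1, 111 for ABCB2 in mock-treated TT8 replicate 2 and 353, the lowest of its group, for SETIT_028842mg in AMF-treated Hanevalval replicate 4.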

How the results depend on the processing

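The sign of the interaction of all 1323 called genes was the same in every alternative that measured them. They were chosen for a large interaction in these same libraries, so a kept sign is no independent evidence. The calls moved mainly with the libraries and the test. With CPM, 86 opposite, 20 AMS-conserved and 4 cell wall genes were called, and the median interaction of all genes was -0.09 with CPM and -0.08 with quantile normalization, against 0.02. All 24 libraries in the fit gave 1688 positive and 890 negative calls, 828 stronger, 898 weaker, 20 AMS-conserved and 14 cell wall genes. DESeq2 gave 1515 and 897, with 644 stronger, 995 weaker, 21 AMS-conserved and 18 cell wall genes. Array weights gave 3444 and 2251, with 1666 stronger, 2802 weaker, 357 opposite, 33 AMS-conserved, 32 amino acid and 33 cell wall genes. Without Hanevalval mock replicates 1 and 2, 771 stronger, 242 weaker, 3 amino acid and 4 cell wall genes were called. Without Hanevalval mock replicates 3 and 4 there were 2566 positive and 1926 negative calls, with 3239 weaker, 228 opposite, 20 AMS-conserved, 28 amino acid and 26 cell wall genes. Without TT8 mock replicate 4 and Hanevalval mock replicate 3 together, chosen after seeing the data, there were 2678 positive and 1349 negative calls, with 1465 stronger, 1464 weaker, 379 opposite, 29 AMS-conserved, 11 amino acid and 25 cell wall genes. Leaving out 1 library at a time gave 205 to 2079 positive and 176 to 1022 negative calls, 125 to 1603 stronger, 110 to 1461 weaker, 47 to 291 opposite, 4 to 26 AMS-conserved, 2 to 13 amino acid and 2 to 21 cell wall genes. The cause of these changes was not tested. Other counts, among them those with a pseudocount of 8, no filter, quantile normalization and edgeR (712 positive and 545 negative calls), stayed within 1.5 times. Samples of the same number deviated together in part, with correlations of -0.17 to 0.39 that were over 0.1 in 8 of 24 pairs. The highest were those of mock-treated Hanevalval replicate 4 with replicate 4 of AMF-treated (0.39) and of mock-treated TT8 (0.39). A pair of different numbers, AMF-treated TT8 replicate 1 and mock-treated Hanevalval replicate 2, reached 0.43. No label pairs the samples, so the main fit left the number out, and the replicate block gave 778 positive and 486 negative calls. Whether the numbers mark a batch was not tested. At low values, as in the mock-treated libraries for AMS genes, single reads limit the precision of a response.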

Other observations

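Noncoding RNA genes with their own identifiers were not in any of the lists, and 102 of 107 were tested. The response of 3 of them differed between the lines, all opposite with TT8 down, a share (2.94%) below the 5.52% of all genes tested. An unadjusted p under 0.05 was reached by 20 of the 102, against 25.7% of all genes tested, 1 with a positive and 19 with a negative interaction. Over all 102 the interaction was positive in 55 and negative in 47, with a median of 0.11, so the set did not lean negative. The interactions of the called genes were -4.00 ± 1.06 (adjusted p = 0.0396), -3.24 ± 0.89 (adjusted p = 0.0437) and -2.42 ± 0.67 (adjusted p = 0.0453; SE each, limma), with responses of -2.32, -1.91 and -1.15 in TT8 and of up to 1.68 in Hanevalval. In ISE36 the responses were -0.14, -0.20 and -0.48. AMF- and mock-treated libraries overlapped in Hanevalval for each of the 3 genes, and in TT8 for all but ENSRNA050012639 (interaction -3.24). None of the 3 calls held in each of the 16 fits without 1 library. The libraries were prepared from mRNA, so the level of such genes also depends on how much noncoding RNA passed the selection, and the part of this in the result was not tested. They were picked out after their values were seen.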
